A study of Homo sapiens with 10 samples.

Results

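The genes described here were 7 genes of the netrin system, of 61533 in the tables: the receptors UNC5A, UNC5B, UNC5C, NEO1 and DCC, and the secreted ligands NTN1 and NTN4. They were chosen from a list of names, with their counts in the comparison of T24R2 with T24 already known, so the difference of each gene between these lines is given as a description and without a test. RNA-seq libraries came from the human bladder cancer line T24 and from T24R2, a line made from T24 by repeated exposure to cisplatin, with 5 replicates of each line on day 3 of culture. According to the study's methods, T24R2 was kept in medium with cisplatin, whereas the sample labels give both lines the same drug-free medium, so an effect of the line and one of the drug cannot be told apart. The T24 libraries held between 9257843 and 10247941 counts each, with a median of 9803565, and the T24R2 libraries between 9591379 and 10840954, with a median of 10354041. The labels and the methods for these libraries do not say whether the replicates were separate cultures, so p-values measure the spread between these libraries, which may be technical.

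Netrins are secreted proteins related to laminins that steer growing axons and also act on epithelial and tumor cells. DCC, neogenin (NEO1) and the UNC5 proteins are their receptors at the cell surface. They are called dependence receptors because, without ligand, their intracellular part can be cleaved by caspases and start apoptosis, whereas bound netrin keeps that signal off. Loss of DCC or UNC5 expression has been described in many carcinomas, and UNC5A and UNC5B are known targets of p53.

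Of the 7 genes, 5 had enough counts to be tested (UNC5A, UNC5B, NTN1, NTN4 and NEO1), whereas UNC5C and DCC fell below the filter on low counts. UNC5A went from no count in T24 to a well expressed gene in T24R2, UNC5B and NTN1 were several-fold higher in T24R2, and NTN4 and NEO1 were lower. The 5 libraries of each line did not overlap for any of these 5 genes. The difference between the lines was broad: 51.4% of the 16181 genes tested passed the thresholds of the study (adjusted p-value under 0.05 and absolute log2 fold change over 0.5) in the quasi-likelihood test of edgeR (Benjamini-Hochberg adjustment), 24.9% higher and 26.5% lower in T24R2, and 61.2% had libraries that did not overlap. The study applied these thresholds to DESeq2 fold changes after shrinkage, a step not taken here. Since the genes were chosen with this comparison known, nothing is read from their count beside these shares. RNA came from bulk cultures, in which fewer cells expressing a gene and less RNA per cell cannot be told apart.

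UNC5A (ENSG00000113763.12, chromosome 5 of hg38, 176810519 to 176880898, plus strand, 4317 exon bases) had 0 counts in each of the 5 T24 libraries. In T24R2 replicates 1 to 5 it had 1017, 979, 1006, 951 and 976 counts. Scaled to library size, its level in T24R2 was 93.3, 84.9, 96.5, 84.7 and 96.0 CPM (counts over the TMM-scaled library size), with a mean of 91.1 ± 5.87 (SD, n = 5). The lines therefore shared no value, and the T24R2 libraries lay close together. A count of 0 allows up to 3 counts in a library, or 0.311 to 0.343 CPM in T24, and against that floor UNC5A was at least 282-fold higher in T24R2. This floor covers counting error alone.

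Few genes were silent in T24 and abundant in T24R2. Of the genes in the tables, 32088 had 0 counts in all 5 T24 libraries, and 4177 of these had a count in any T24R2 library. In 43 of them every T24R2 library had at least 10 counts, and in 5 every library had at least 100. UNC5A ranked first of these by its mean count of 985.8 in T24R2. It was chosen with its counts known, so nothing further is read from this rank. The next were SV2B, which encodes a synaptic vesicle protein, with a mean count of 237.4, DDX53, an RNA helicase gene, with 193.6, and GPC4, a cell surface proteoglycan, with 159.4, all named after their values were seen. Per exon length, which makes genes comparable, UNC5A reached 21.1 ± 1.36 FPKM (SD, n = 5), above 86.6% of the genes tested in T24R2.

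Counting used a strand option, but the library kit is not described in the methods as strand-specific, so reads of overlapping genes on opposite strands cannot be told apart. Of the UNC5A exon bases, 30 (0.695%) lie under HK3, a hexokinase gene on the other strand. HK3 had 0 counts in every T24 library and 3, 5, 3, 5 and 7 counts in T24R2 replicates 1 to 5.

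The sequence before the start of UNC5A is shown beside that of DCC, since UNC5A had many counts in T24R2 and DCC had 1 count in all 10 libraries. Both come from RefSeq (GRCh38.p14), on the plus strand, 5′ to 3′, in lower case with each CpG in capitals. UNC5A is given for chr5:176810309-176810518 and DCC for chr18:52339947-52340196.
UNC5A: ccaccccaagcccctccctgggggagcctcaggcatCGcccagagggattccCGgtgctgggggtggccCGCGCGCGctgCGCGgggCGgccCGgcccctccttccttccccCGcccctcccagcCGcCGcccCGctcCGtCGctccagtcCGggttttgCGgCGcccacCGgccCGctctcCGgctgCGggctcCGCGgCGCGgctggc
DCC: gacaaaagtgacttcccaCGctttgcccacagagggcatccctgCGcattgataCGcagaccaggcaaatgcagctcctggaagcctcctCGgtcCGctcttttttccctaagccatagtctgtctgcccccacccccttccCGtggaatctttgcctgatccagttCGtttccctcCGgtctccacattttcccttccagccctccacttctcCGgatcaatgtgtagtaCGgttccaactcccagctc

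The printed stretches held 27 CpG in 210 bases for UNC5A and 10 in 250 bases for DCC. In windows of 300 bases, from 250 before the RefSeq start to 50 after it, UNC5A held 44 CpG and 80.7% G and C, and 95.8% of the 35116 promoter windows held fewer CpG. NEO1 held 35 CpG, UNC5C 22 and DCC 15, and the windows of NTN4 held 21 and 40, beside a median of 14 over all windows. The letters GGGCGG, the core of a GC box searched on both strands, occurred 4 times in the UNC5A window, once in that of NEO1 and 4 times in 1 of the windows of NTN4, and 45.0% of all windows held them. No window of these 5 genes held TATAAA on either strand, which 11.5% of all windows did. These are matches of letters, and no methylation or factor binding was measured here. UNC5B and NTN1 had no entry.

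**Figure D1:**
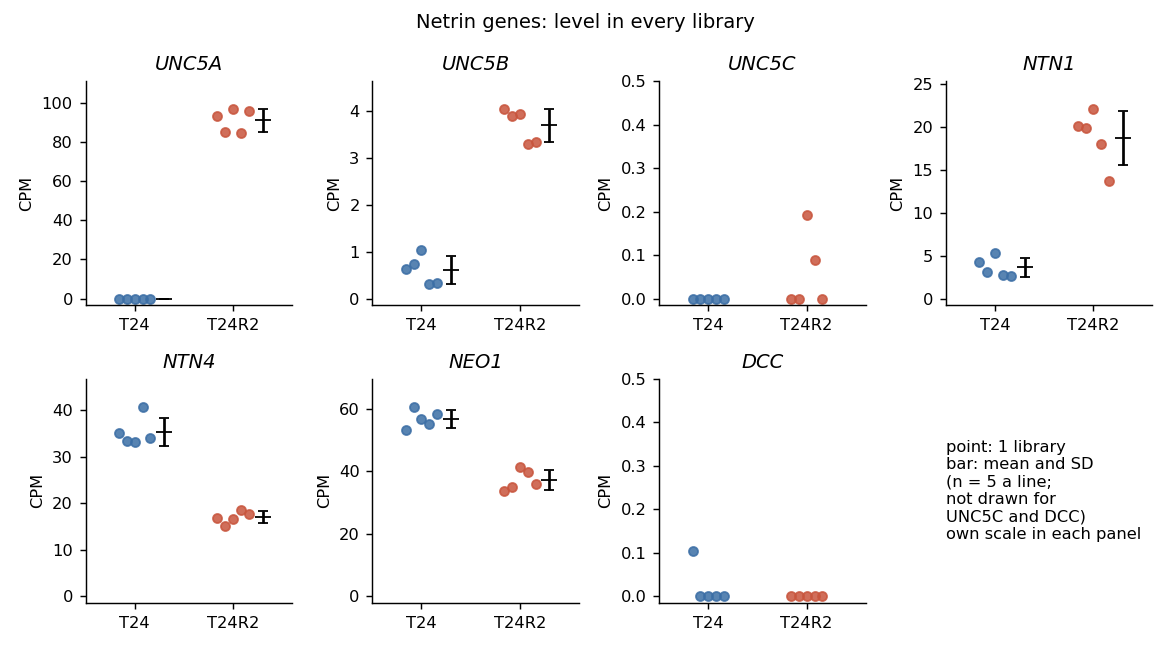
Level of the 7 genes in every library, in CPM (vertical axis, own scale in each panel, starting at 0), for T24 and T24R2; points are libraries and bars are the mean and SD of 5 libraries, not drawn for UNC5C and DCC. UNC5A lay at 0 in T24 and between 84.7 and 96.5 CPM in T24R2, UNC5B and NTN1 were higher and NTN4 and NEO1 lower in T24R2 without overlap, and UNC5C and DCC stayed at or under 2 counts.

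UNC5B (ENSG00000107731.12, chromosome 10, 71212570 to 71302864, plus strand) encodes the UNC5 receptor best known from blood vessels. It had 6, 7, 9, 3 and 3 counts in T24 and 44, 45, 41, 37 and 34 in T24R2, in the order of the replicates. Every T24R2 library was above every T24 library, but the T24 values rested on few counts. The mean level was 0.607 ± 0.298 CPM in T24 and 3.70 ± 0.353 CPM in T24R2 (SD, n = 5), a log2 fold change of 2.59 (SE 0.312) in the edgeR fit. Even in T24R2 the level of UNC5B per length, 0.541 FPKM, was above that of 10.7% of the genes tested, and in T24 it was above 1.98%.

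UNC5C and DCC were close to absent in both lines. UNC5C (ENSG00000182168.15, chromosome 4, 95162504 to 95549206, minus strand) had 0 counts in every T24 library and 0, 0, 2, 1 and 0 counts in T24R2. DCC (ENSG00000187323.12, chromosome 18, 52340197 to 53535903, plus strand), the founding netrin receptor, had 1 count in T24 replicate 1 and 0 in the other 9 libraries. Both lines were at or under the floor of 3 counts for these genes, so no difference could be detected at this depth and no fold is given. UNC5D, the remaining UNC5 gene, had 0 counts in all 10 libraries.

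NEO1 (ENSG00000067141.17, chromosome 15, 73051710 to 73305205, plus strand) encodes neogenin, the relative of DCC that also binds the repulsive guidance molecules. It had 513, 576, 496, 514 and 540 counts in T24 and 367, 405, 432, 447 and 367 in T24R2. The lowest T24 library, at 53.2 CPM, was above the highest T24R2 library, at 41.5 CPM. The mean level was 56.8 ± 2.81 CPM in T24 and 37.2 ± 3.28 CPM in T24R2, or 65.5% of T24, with a log2 fold change of -0.61 (SE 0.0677). The size of this fall depended on the scaling, and with library size alone the log2 fold change was -0.45, under the minimum of the thresholds.

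NTN1 (ENSG00000065320.9, chromosome 17, 9021510 to 9244000, plus strand) encodes netrin-1, the main ligand of DCC and the UNC5 receptors. It had 41, 30, 47, 26 and 25 counts in T24 and 220, 229, 230, 202 and 139 in T24R2. T24R2 replicate 5 was the lowest of its line, at 13.7 CPM, and still lay above all T24 libraries, which reached 5.37 CPM. The mean level was 3.66 ± 1.14 CPM in T24 and 18.8 ± 3.19 CPM in T24R2, 5.13 times that of T24, with a log2 fold change of 2.36 (SE 0.16).

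NTN4 (ENSG00000074527.13, chromosome 12, 95657807 to 95791189, minus strand) encodes netrin-4, a basement membrane netrin that binds laminin chains. It had 338, 318, 291, 378 and 316 counts in T24 and 183, 175, 173, 209 and 180 in T24R2. All T24R2 libraries were lower than all T24 libraries, and T24 replicate 4, at 40.7 CPM, stood above the other libraries of its line. The mean level was 35.3 ± 3.07 CPM in T24 and 17.0 ± 1.29 CPM in T24R2, or 48.1% of T24, with a log2 fold change of -1.06 (SE 0.0861). Per length, NTN4 passed from above 63.5% of the genes tested in T24 to above 45.1% in T24R2, and NTN1 from above 11.2% to above 37.8%.

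The spread among replicates differed between the genes. The CPM of UNC5A varied by 6.44% (SD over mean) among the T24R2 libraries, whereas counting error alone gives 3.18%. NTN1 varied most beyond counting error, by 17.0% in T24R2 beside 7.0% from counting, and by 31.2% beside 17.2% in T24. For UNC5B the spread in T24R2 was 9.54% and the counting error 15.8%, so its libraries differed by less than counting alone would give, and in T24 the values were 49.1% and 42.3%. NTN4 in T24R2 (7.60% beside 7.37%) and NEO1 in T24 (4.95% beside 4.35%) were near the counting limit, whereas NTN4 in T24 (8.69% beside 5.52%) and NEO1 in T24R2 (8.82% beside 4.98%) were above it. These spreads describe the libraries within each line. The differences between the lines, known when the genes were chosen, are not set against them.

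The order of the levels per length was rearranged between the lines. In T24, NTN4 led with 8.09 FPKM, followed by NEO1 with 6.98, NTN1 with 0.570 and UNC5B with 0.0887 FPKM. The libraries of neighbours in this order did not overlap, except among DCC, UNC5C and UNC5A, which lay at or near 0. In T24R2, UNC5A led with 21.1 FPKM, followed by NEO1 with 4.58, NTN4 with 3.89, NTN1 with 2.92 and UNC5B with 0.541 FPKM. There the libraries of NEO1 and NTN4 overlapped, so their order was not resolved, and those of the other neighbours did not overlap down to UNC5C and DCC.

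The summed level of the 5 receptors rose from 7.07 ± 0.351 FPKM in T24 to 26.2 ± 1.46 FPKM in T24R2 (SD, n = 5). NEO1 made up 98.7% ± 0.612 of this sum in T24 and 17.5% ± 1.52 in T24R2, where UNC5A made up 80.4% ± 1.51. Within the UNC5 genes the change was from UNC5B alone to 97.5% ± 0.253 UNC5A. The summed level of NTN1 and NTN4 was 8.66 ± 0.645 FPKM in T24 and 6.81 ± 0.430 FPKM in T24R2, and the share of NTN1 in it went from 6.63% ± 2.18 to 42.7% ± 5.59. The ratio of receptor to netrin transcripts per length was 0.822 ± 0.0895 in T24 and 3.86 ± 0.320 in T24R2. These sums restate the values of the single genes and are not a further result, and transcript levels do not give the amount of protein.

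**Figure D2:**
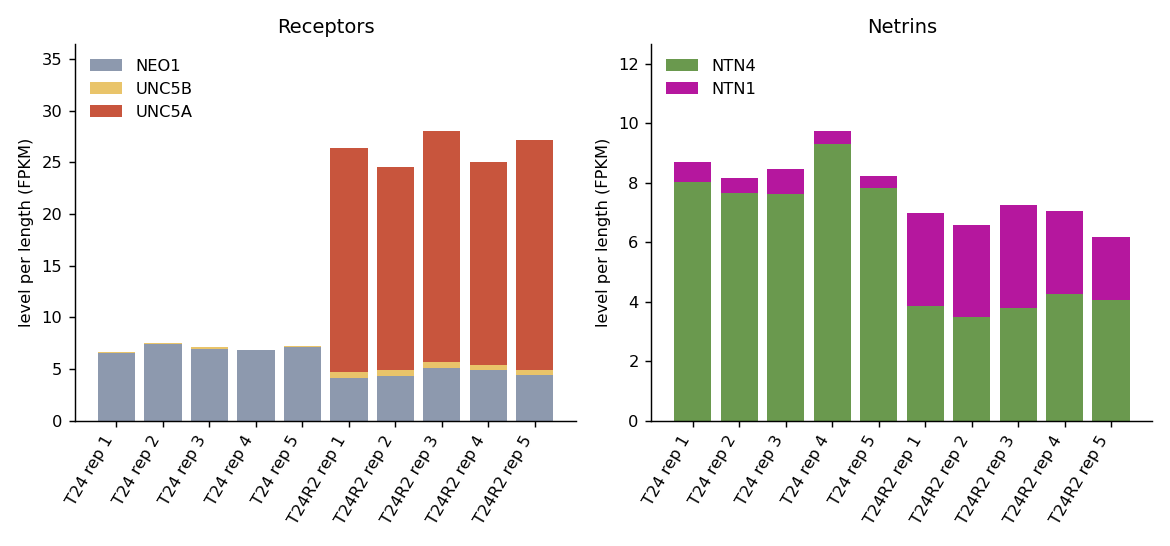
Level per exon length (FPKM, vertical axes from 0) of the receptors NEO1, UNC5B and UNC5A (left) and of the netrins NTN4 and NTN1 (right), stacked for each of the 10 libraries; UNC5C and DCC are too low to be drawn. The receptor bars of T24 were nearly all NEO1, those of T24R2 reached 24.5 to 28.1 FPKM and were mostly UNC5A, and NTN1 took 34.4% to 47.5% of the netrin bars in T24R2.

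The genes most like UNC5A across the 10 libraries were found by Euclidean distance of log2(CPM + 0.5). They were SPANXB1 (distance 1.49), KCNK3 (2.02), LINC00942 (2.55), KSR2 (3.08) and ANK2 (3.20), which lie on other chromosomes, and each was at or near 0 in T24. SPANXB1, a testis antigen gene, had a mean of 67.2 ± 9.30 CPM in T24R2, but near-identical copies of it exist and their reads are hard to separate. KCNK3, a potassium channel gene, had 55.5 ± 5.09 CPM, and KSR2, a scaffold of the MAP kinase cascade, had 36.1 ± 0.587 CPM. No other gene matched UNC5A in combining 0 counts in T24 with a mean level over 90 CPM in T24R2. Both limits follow the values of UNC5A itself, so nothing further is read from this.

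Around UNC5A on the chromosome, a larger share of genes was higher in T24R2 than over all genes tested, a difference that was not itself tested. Within 1 Mb of the gene the tables list 81 genes, of which 37 were tested, and 16 of these (43.2%) were higher and 6 (16.2%) lower in T24R2 by the edgeR test, beside 24.9% and 26.5% of all genes tested. The nearest tested gene before UNC5A was TSPAN17, a tetraspanin gene that ends 151465 bases away. It rose from 52.5 ± 5.98 CPM in T24 to 169 ± 14.4 CPM in T24R2, a log2 fold change of 1.69 (SE 0.0639), with an adjusted p-value of 1e-24 in the quasi-likelihood test of edgeR (Benjamini-Hochberg adjustment). The nearest after it was UIMC1, 24107 bases away, which encodes a ubiquitin-binding protein of the BRCA1-A complex. UIMC1 rose from 42.9 to 79.8 CPM (log2 fold change 0.89, SE 0.0587, adjusted p-value 6.47e-17 by the same edgeR test).

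Of the 16 higher neighbours, 11 stood side by side. Starting from UNC5A, the 3 nearest tested genes before it (TSPAN17, GPRIN1 and CDHR2) and the 8 nearest after it (UIMC1, ZNF346, ZNF346-IT1, FGFR4, NSD1, RAB24, MXD3 and PRELID1) were all higher in T24R2. These 11 genes span 770.2 kb, from 176542511 to 177312757, and their log2 fold changes lay between 0.86 and 1.86 with a median of 1.43. The stretch was delimited after its values were seen, so no test is given for it. Among them, NSD1, a histone H3 lysine 36 methyltransferase gene, rose from 98.2 to 267 CPM, and FGFR4, a growth factor receptor gene, from 2.0 to 5.43 CPM. The next tested genes outward, RNF44 and LMAN2, had log2 fold changes of 0.25 and 0.34 and did not reach the thresholds. Of the exon bases of MXD3 and PRELID1, 24.2% and 62.4% lie under a gene on the opposite strand, so reads may be shared there. ZNF346-IT1, with a mean of 14.3 counts, lies within the span of ZNF346 on the same strand. The spans of RAB24 and MXD3 also overlap on the same strand, so the 11 genes are not all separate in position.

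Beyond this stretch, 5 of the other 26 tested genes within 1 Mb were higher. DOK3, an adaptor protein gene, was the most changed of them, from 0.384 to 13.1 CPM (log2 fold change 5.04). The others were SIMC1, DDX41 and the unnamed genes ENSG00000247679 and ENSG00000246596. The 6 lower genes were ARL10, RGS14, F12, PRR7, DBN1 and TMED9, with log2 fold changes between -1.05 for DBN1 and -0.65 for ARL10. With library size alone the call of ARL10 was lost (-0.49), and 17 genes were higher and 5 lower. The median log2 fold change of the 37 genes was 0.25, beside 0.01 for all genes tested.

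**Figure D3:**
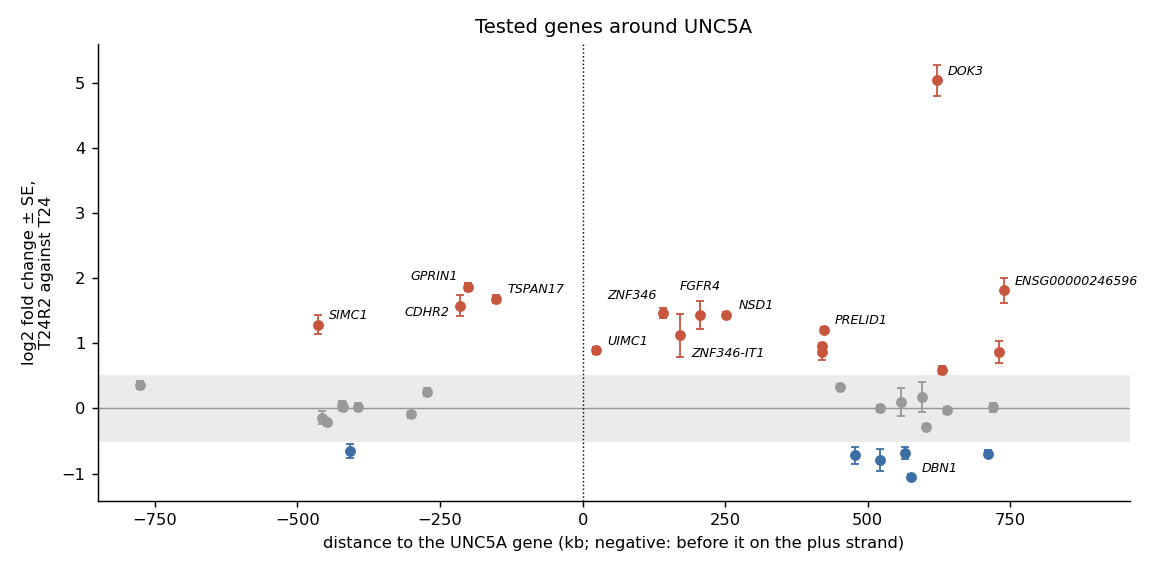
Log2 fold change ± SE of T24R2 against T24 (vertical axis) of the 37 tested genes within 1 Mb of UNC5A, by their distance to the gene in kb (horizontal axis; UNC5A, at the dotted line, is not drawn because it has only a bound); red is higher and blue lower past the thresholds, and the gray band marks log2 fold changes up to 0.5 in size. The 11 tested genes on both sides of UNC5A, from CDHR2 to PRELID1, were red, with values from 0.86 to 1.86.

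Other genes of the netrin and related guidance pathways were taken from lists of members of each pathway. The lists held 153 genes, 119 of which were tested, and 34 were higher and 52 lower in T24R2 by the edgeR test, so that 72.3% were called beside 51.4% of all genes tested. Their median log2 fold change was -0.25. The lists were chosen with earlier results of these data known. Nothing is therefore read from the share of genes called, here or in the single lists below.

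Among the other netrins and the ligands that share UNC5, DCC or NEO1 receptors, 5 of 13 genes were tested, and 3 were higher and 2 lower. Of those tested, 100% were called, beside 51.4% of all genes tested. NTNG1 and NTNG2, membrane-anchored netrins that do not bind DCC or UNC5, both rose, NTNG1 from 24.7 to 46.6 CPM (log2 fold change 0.91) and NTNG2 from 1.63 to 3.10 CPM (0.92). FLRT2, a leucine-rich repeat protein that binds UNC5 receptors, rose from 2.64 to 7.06 CPM (1.41). Its relative FLRT3 had 29, 22, 21, 30 and 20 counts in T24 and 0 in every T24R2 library, at least 9.46-fold lower. RGMB, a ligand of neogenin, fell from 113 to 67.7 CPM (-0.74), with 45.8% of its exon bases under a gene on the other strand. NTN3, NTN5, DRAXIN, RGMA and FLRT1 were too low to test, and GPC3, a glypican that binds UNC5 receptors, went from 0 counts in T24 to 9, 6, 8, 14 and 2 in T24R2 and was not tested.

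Of 12 other proteins reported to bind netrins or to act with UNC5 receptors, 7 were tested, and none was higher and 5 were lower. Thus 71.4% were called, beside 51.4% of all genes tested. MCAM, an adhesion molecule reported to bind netrin-1, fell from 125 to 0.283 CPM (log2 fold change -8.76, SE 0.139). The integrin genes fell too, ITGB4 from 65.7 to 0.541 CPM (-6.91), ITGA6 from 702 to 167 CPM (-2.07), ITGB1 from 1135 to 518 CPM (-1.13) and ITGA3 from 1785 to 1091 CPM (-0.71). The integrins formed by these subunits bind laminins and are reported to bind netrins. ADORA2B (-0.17) and ADGRL1 (-0.26) did not reach the fold minimum.

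Of 12 genes for proteins on the death side of dependence receptors, 11 were tested, and 2 were higher, 3 lower and 6 not called, so that 45.5% were called beside 51.4% of all genes tested. CARD8, a caspase recruitment protein described in complexes with dependence receptors, rose from 33.3 to 153 CPM (log2 fold change 2.20), and APPL1, a partner of DCC, from 66.4 to 94.5 CPM (0.51). The call of APPL1 was lost without T24 replicate 1 (0.49), T24 replicate 2 (0.47) or T24R2 replicate 4 (0.49). MAGED1, which binds the intracellular part of UNC5A, fell from 426 to 165 CPM (-1.37), and so did PPP2R1B (-1.37), a subunit of the phosphatase linked to UNC5B-induced death, and FHL2 (-1.07), an adaptor protein. DAPK1, the kinase that UNC5B engages, had 0 counts in all 10 libraries. CASP9 (-0.28), an initiator caspase, was not called, and it was named after its value was seen.

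Of 25 genes of the guidance side, 24 were tested, and 6 were higher, 7 lower and 11 not called. This made 54.2% called, near the 51.4% of all genes tested. The median log2 fold change of the 24 genes was -0.02. TRIM9, a ubiquitin ligase that binds DCC, had 3, 0, 2, 1 and 0 counts in T24. Against the floor of 3 counts it was at least 14.2-fold higher in T24R2, at 4.58 CPM. ABLIM1, an actin-binding protein, rose from 4.2 to 19.8 CPM (log2 fold change 2.24). MYO10, the motor that carries DCC along filopodia, fell from 452 to 169 CPM (-1.42), CDC42 from 400 to 201 CPM (-0.996) and DOCK1, an activator of RAC1, from 123 to 66.7 CPM (-0.88).

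The p53 target genes formed a list of their own, and the activity of p53 was not tested. All 16 were tested, and 5 were higher and 10 lower. Thus 93.8% were called, beside 51.4% of all genes tested, of which 24.9% were higher and 26.5% lower. CDKN1A, the cell cycle inhibitor that p53 induces, fell from 97.7 to 12.8 CPM (log2 fold change -2.93, SE 0.075), GDF15 from 61.7 to 0.787 CPM (-6.29), PHLDA3 from 25.6 to 4.27 CPM (-2.57) and BTG2 from 5.19 to 1.41 CPM (-1.88). SESN2, a stress response gene, rose from 7.27 to 23.9 CPM (1.72).

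Among 17 other dependence receptor genes, 11 were tested, and 6 were higher and 5 lower. Thus 100% of those tested were called, beside 51.4% of all genes tested. BOC, a relative of the netrin receptors that binds hedgehog proteins, rose from 0.213 to 2.29 CPM (log2 fold change 3.34), INSR, the insulin receptor, from 2.92 to 24.2 CPM (3.04) and ITGB3 from 70.9 to 293 CPM (2.05). IGF1R fell from 81.4 to 21.1 CPM (-1.95) and NGFR, the low-affinity neurotrophin receptor, from 2.61 to 0.471 CPM (-2.42).

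The other families of guidance cues also changed in both directions. Their counts stand beside 51.4% of all genes tested that were called, 24.9% higher and 26.5% lower in T24R2. Of 7 slit and ROBO genes 5 were tested, and 1 was higher and 2 lower: ROBO1 fell from 67.6 to 2.0 CPM (log2 fold change -5.08), ROBO2 had 0 counts in every T24R2 library and was at least 11.3-fold lower, and ROBO4 rose from 2.26 to 20.04 CPM (3.14). Of 31 semaphorin, plexin and neuropilin genes 27 were tested, and 4 were higher and 15 lower. SEMA3F fell from 190 to 3.81 CPM (-5.64), SEMA7A from 76.5 to 4.76 CPM (-4.01), SEMA3D from 13.5 to 1.29 CPM (-3.37) and SEMA5A from 4.76 to 0.731 CPM (-2.67), whereas SEMA3E rose from 0.417 to 7.07 CPM (4.07). Of 22 ephrin and Eph receptor genes 15 were tested, and 7 were higher and 5 lower. EPHB1 rose from 0.837 to 21.7 CPM (4.67), EFNA3 from 0.990 to 3.13 CPM (1.66) and EPHB6 from 1.25 to 2.86 CPM (1.19), and EFNA1 fell from 22.1 to 1.76 CPM (-3.64) and EFNB3 from 11.9 to 4.32 CPM (-1.47).

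**Figure D4:**
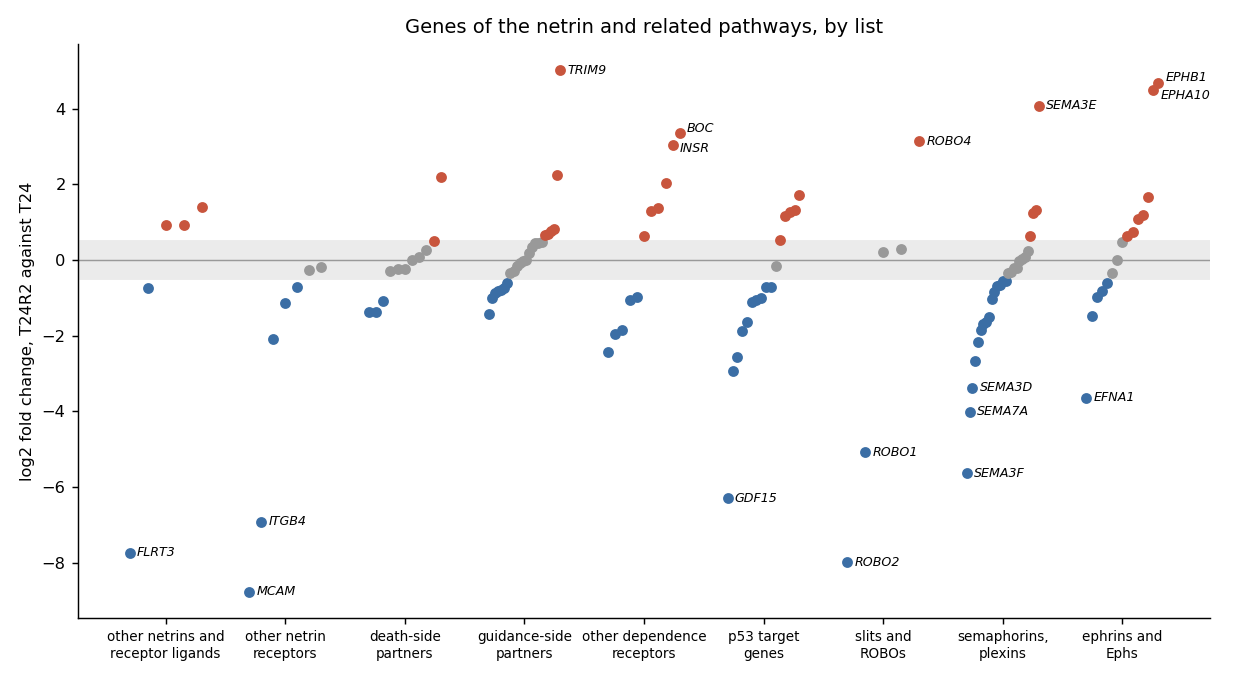
Log2 fold change of T24R2 against T24 (vertical axis) of the 119 tested pathway genes by list (horizontal axis); each point is a gene, red higher and blue lower past the thresholds and gray not called, 2 genes are in 2 lists, and FLRT3 and ROBO2, with 0 counts in T24R2, stand at fitted values that are no bound. None of the 7 tested genes in the list of other netrin receptors was red, and 10 of the 16 p53 target genes were blue. Of all genes tested, 24.9% were higher and 26.5% lower.

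Marker genes of cell types were compared as well. The urothelial keratin genes KRT7 (2242 and 1370 CPM in T24 and T24R2), KRT8 and KRT18 were abundant in both lines. All 7 urothelial markers that were tested, of 9, were lower in T24R2, beside 26.5% of all genes tested. Among these markers, KRT19 (267 to 0.0887 CPM), GATA3 (22.1 to 0.214 CPM) and EPCAM (4.45 to 0.130 CPM) were nearly lost. The summed level of the urothelial markers was 4868 to 5601 CPM in the T24 libraries and 2990 to 3190 CPM in those of T24R2. KRT7 was the most abundant. The uroplakin genes UPK1B and UPK3A were at or near 0 in both lines and UPK2 was at 9.90 and 2.74 CPM.

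Markers of neurons, in which UNC5A is normally expressed, were low in both lines, with sums of 3.58 to 4.63 CPM in T24 and 7.22 to 8.36 CPM in T24R2. SYP, the most abundant over the 10 libraries together, rose from 0.777 to 4.59 CPM (log2 fold change 2.54), SNAP25 fell, MAP2 was not called, and STMN2, DCX and ELAVL4 had no count in any library. The sums were 8.86 to 11.2 and 0.954 to 2.29 CPM for 7 fibroblast markers (most abundant COL1A1), and 1.49 to 2.26 and 0.492 to 3.07 CPM for 7 leukocyte markers (CD14). For 6 endothelial markers they were 226 to 278 CPM in T24 and 1.6 to 2.78 CPM in T24R2. In T24 nearly all of this was CDH5, which fell from 239 to 0.559 CPM, and PECAM1 fell from 5.36 to 1.17 CPM, whereas KDR, TEK and CLDN5 were at or near 0 in both lines. The part of these marker differences in the values of the netrin genes was not tested.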

How the data were processed

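Per the labels and the study's methods, RNA-seq reads were aligned by the authors to hg38 with STAR 2.7.0, uniquely mapped reads without duplicates were kept with SAMtools 1.10, and the deposited counts, raw fragments per gene of GENCODE release 39, were made with featureCounts 2.0.1 (strand option 1) without normalization or pooling. No molecular identifiers are described. Rows without a gene identifier numbered 0.

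The lines were compared, T24R2 against T24 (5 libraries each) in R 4.3.3 with edgeR 4.0.16, using filterByExpr (16181 genes), TMM, glmQLFit and glmQLFTest, with Benjamini-Hochberg adjustment over all genes tested. CPM used TMM-scaled library sizes, and FPKM divided CPM by exon length in kb. Each of the 20 pairs of replicates differed by more than sampling noise (chi-square over degrees of freedom 2.01 to 7.04).

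The members and lists were chosen with earlier results of these data known. The genes named are the 7 members, UNC5D, up to 5 called genes of each list with the largest absolute log2 fold change and a mean of at least 10 counts, listed genes that complete a receptor or ligand family, the 5 genes nearest to UNC5A in distance, the tested genes flanking it and the called genes within 1 Mb. The keratins KRT8 and KRT18, marker genes at or near 0, genes outside the thresholds and DAPK1 were named after their values were seen. Alternatives were other scalings, DESeq2 1.42.0, limma-voom (limma 3.58.1), other filters and thresholds, a replicate block, removal of genes overlapped from the opposite strand and leaving out each library. Overlaps used bedtools 2.31.1, and other steps Python 3.11.15, numpy 2.4.6, pandas 2.3.3, SciPy 1.17.1 and matplotlib 3.10.9. The fits were tested on simulated data with far fewer changed genes than were called here. That simulation does not cover the dependence on scaling given below. The result of 1 listed gene is not reported here.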

Additional observations from a re-analysis of the deposited data

Results flagged for a closer look

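In T24 replicate 4, NTN4 stood at 40.7 CPM, above the other 4 libraries of the line, which lay between 33.3 and 35.1 CPM, and its gap to the nearest of them was large for a group of 5. Of the 9 groups of libraries examined this way for the 7 genes, 1 was found, where chance gives 0.45. Without this library the log2 fold change of NTN4 was -1.01, beside -1.06 with all libraries.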

How the results depend on the processing

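With library size alone in place of TMM, the median log2 fold change over all genes moved from 0.01 to 0.18 and the share of higher genes among those called from 48.5% (4027 higher, 4282 lower) to 60.3% (5206 higher, 3431 lower), the bound of UNC5A was 315-fold, and the log2 fold changes were -0.89 for NTN4 and -0.45 for NEO1. The 8309 genes called became 4991 with a mean of at least 100 counts and 4211 with an absolute log2 fold change over 1, which left 56 of 86 pathway genes. Leaving out 1 library at a time gave 8398 to 8466 genes called, 85 to 88 pathway genes, 22 genes near UNC5A, a bound of 278 to 288 for UNC5A, and log2 fold changes of 2.43 to 2.84 for UNC5B, 2.27 to 2.53 for NTN1, -1.09 to -1.01 for NTN4 and -0.65 to -0.57 for NEO1. NEO1 was the only one of UNC5B, NTN1, NTN4 and NEO1 to pass under the fold minimum of 0.5, with library size alone. Of 2010 alternative values of the 108 called pathway and neighbouring genes, 1998 kept direction and call, none turned, and 12 in 7 genes lost the call (APPL1, ARHGEF12, RRM2B, PLXNB3, PLXNC1, EPHA2 and ARL10). Same-numbered replicates of the 2 lines had small correlations of deviations (0.00654 to 0.0683), and 1 of 5 T24 libraries was closest to its own number. A batch shared by replicate number was not tested. A fit with the replicate number as a block called 8240 genes and 86 pathway genes, with 22 genes near UNC5A. In that fit the log2 fold change was 2.62 for UNC5B and 2.37 for NTN1, and that of NEO1 stayed at -0.61. Depth limits UNC5C, DCC and the T24 level of UNC5B, which rest on 9 counts or fewer a library.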
